A study of Mus musculus with 16 samples.

Results

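Vesicle trafficking genes encode the coats, adaptors, small GTPases, sorting complexes and fusion proteins that carry cargo between the endoplasmic reticulum, the Golgi, endosomes, lysosomes and the cell surface. They were taken here as the probes whose single gene symbol begins as the Rab, Vps, Snx, Sec, COPI coat, adaptor (Ap1 to Ap4), Arf, Stx and Vamp families do. The rule used symbols alone and no measured value, and it also admits a few genes of other functions, such as Vps72, a nuclear subunit of chromatin-remodelling complexes, and Sec1, a fucosyltransferase gene. It found 223 probes of 157 genes, of 20355 probes and 9930 genes with 1 symbol on the arrays, and 120 of the 157 genes had values on enough arrays to be tested.

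The cells were NIH3T3, an established mouse fibroblast line, treated with azacytidine, an analogue of cytidine that enters DNA and RNA and binds DNA methyltransferases irreversibly. On each 2-colour array, treated and untreated RNA of one line were hybridised together. Cells transfected with Erbb2, a receptor tyrosine kinase oncogene, were treated at 10 µM (8 arrays) or at 5 µM (4 arrays). Untransfected cells were treated at 10 µM (4 arrays). Treatment times, culture numbers and whether the transfected line was 1 clone are not stated in the labels. The p-values therefore measure the spread between these arrays, which may be technical. Each feature's spread was estimated over all 16 arrays together, so a p-value for 1 group also rests on arrays of the other groups. A ratio holds no expression level, and Erbb2 itself was not analysed here, so neither the cell type nor the transfection was checked by a level.

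Transport begins at the endoplasmic reticulum, where the Sec61 channel admits new proteins and the COPII coat packs them into vesicles bound for the Golgi. Arf GTPases recruit the COPI coat and the clathrin adaptors at the Golgi, Rab GTPases give each compartment its identity, and sorting nexins and Vps complexes sort cargo in endosomes. Syntaxins (Stx) and vesicle-associated membrane proteins (Vamp) are SNAREs, which fuse vesicle and target membranes.

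Azacytidine acts on cytosine methylation, which in mammals lies mostly at CpG dinucleotides. The 250 bases before the start site are therefore shown for the 3 genes that passed the test below, Arf4, Ap3b1 and Snx14, and for Sec61b, whose fitted value was the farthest from 0 of the 120 genes in untransfected cells. They come from the mouse RefSeq annotation of GRCm38.p6, 5′ to 3′ on the gene's strand, with each CpG in capitals.
Arf4, chr14:26637884-26638133, plus strand: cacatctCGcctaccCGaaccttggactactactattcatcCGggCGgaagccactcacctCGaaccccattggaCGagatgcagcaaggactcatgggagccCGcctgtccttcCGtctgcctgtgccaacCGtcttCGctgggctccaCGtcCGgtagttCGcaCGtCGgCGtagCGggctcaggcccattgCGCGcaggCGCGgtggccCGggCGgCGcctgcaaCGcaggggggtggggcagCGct
Ap3b1, chr13:94358710-94358959, plus strand: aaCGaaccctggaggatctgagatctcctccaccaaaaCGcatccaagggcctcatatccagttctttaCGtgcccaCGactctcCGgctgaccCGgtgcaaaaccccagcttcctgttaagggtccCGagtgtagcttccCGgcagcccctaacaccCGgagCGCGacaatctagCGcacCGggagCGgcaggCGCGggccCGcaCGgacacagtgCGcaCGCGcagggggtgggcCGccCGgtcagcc
Snx14, chr9:88438930-88439179, minus strand: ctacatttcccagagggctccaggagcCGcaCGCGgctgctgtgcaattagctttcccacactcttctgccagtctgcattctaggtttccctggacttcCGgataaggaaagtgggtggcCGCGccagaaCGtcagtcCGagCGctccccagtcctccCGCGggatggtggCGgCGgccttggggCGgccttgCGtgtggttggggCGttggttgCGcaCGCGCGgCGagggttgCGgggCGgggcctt
Sec61b, chr4:47474411-47474660, plus strand: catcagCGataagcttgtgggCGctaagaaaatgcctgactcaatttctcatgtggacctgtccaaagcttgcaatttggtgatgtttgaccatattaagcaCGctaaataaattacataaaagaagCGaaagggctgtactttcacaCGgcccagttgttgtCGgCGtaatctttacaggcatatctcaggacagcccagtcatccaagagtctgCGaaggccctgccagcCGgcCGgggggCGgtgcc

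These windows held 26 CpG for Arf4, 23 for Ap3b1, 23 for Snx14 and 11 for Sec61b. Over the 130 trafficking genes with a listed promoter the median was 17 CpG, with quartiles of 10 and 21, against a median of 15 for the 8005 genes on the arrays with a promoter and 6 for all 27025 promoters. The windows of Arf4, Ap3b1 and Snx14 thus held more CpG than the median of any of these sets. Methylation was not measured here. Across the 99 tested trafficking genes with a promoter, the number of CpG had a Pearson's r of 0.016 with the fitted log2 ratio in Erbb2 cells at 10 µM and 0.0511 at 5 µM, against -0.0603 in untransfected cells. These values describe genes that share the same arrays and are not independent replicates.

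Each value below is the log2 of treated over untreated cells, so 1 is a 2-fold higher level, and ± gives the standard error of limma's fitted value for a group. A gene passed where p, adjusted by Benjamini and Hochberg's method across the 12420 features (genes, or probes with no single symbol), was under 0.05. The direction is assumed, not settled. The numerator of the deposited ratios is not stated, and they were read as Cy5 over Cy3 by the usual convention, so with Cy3 over Cy5 every sign below would turn while sizes and tests would stay. For untransfected cells both channels of an array carry the same dye label, so each sign there rests on the label of channel 1, and with the treated RNA in the other dye every untransfected value below would change sign. Arrays gave 16153 to 18507 ratios, with interquartile ranges of 0.71 to 1.36 log2 units, with the widest on arrays 6, 3 and 5 of the Erbb2 group at 10 µM. Of the fibroblast markers tested, 1 of 10 was higher in Erbb2 cells at 10 µM (Sparc, 0.68 ± 0.11) and 3 of 10 were lower in untransfected cells (Fn1 at -1.63 ± 0.20, Col1a2 at -0.79 ± 0.19 and Vim at -0.55 ± 0.14). Of 5 epithelial markers 1, Krt8, was higher in untransfected cells (1.13 ± 0.27). Of 4 blood and immune markers 0 passed in any group, with 0 at an unadjusted p under 0.05. In untransfected cells 3 of 5 epithelial (60%) and 3 of 10 fibroblast markers (30%) had such a p, against 11.5% of all features. Epithelial markers had a median of 0.83 there, with 4 above 0 and Epcam at -0.3. In Erbb2 cells 2 of 10 fibroblast and 0 epithelial markers had such a p at the higher dose (10.8% of all features). At the lower dose 3 and 1 had it (6.33% of all features). The part of these markers in the results below was not tested.

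Of the vesicle trafficking genes Arf4 passed in Erbb2 cells at 10 µM, and Ap3b1 and Snx14 in untransfected cells, each with a lower ratio. In Erbb2 cells at 10 µM this was 1 of 120 genes (0.833%), where 1.26% of all features passed, 0.403% higher and 0.862% lower, and 13 genes had an unadjusted p under 0.05 (10.8%, as for all features). At 5 µM 0 of the 120 passed in limma and 4 had an unadjusted p under 0.05 (3.33%), where 0.209% of all features passed (0.177% higher, 0.0322% lower) and 6.33% had such a p. In untransfected cells 2 of the 120 passed (1.67%), both lower, where 2.73% of all features passed, 0.596% higher and 2.13% lower, and 10 had an unadjusted p under 0.05 (8.33%, where 11.5% of all features did). Counts at an unadjusted p given below for single classes stand beside these shares of all features. The median fitted ratio of the 120 genes in Erbb2 cells was -0.02 at 10 µM (0 for all features) and -0.05 at 5 µM (-0.02 for all features), and in untransfected cells it was -0.04 (0.03 for all features). Fitted values of single genes ranged from -1.19 to 1.69 in Erbb2 cells at 10 µM, from -1.83 to 1.23 at 5 µM and from -1.67 to 0.93 in untransfected cells.

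**Figure D1:**
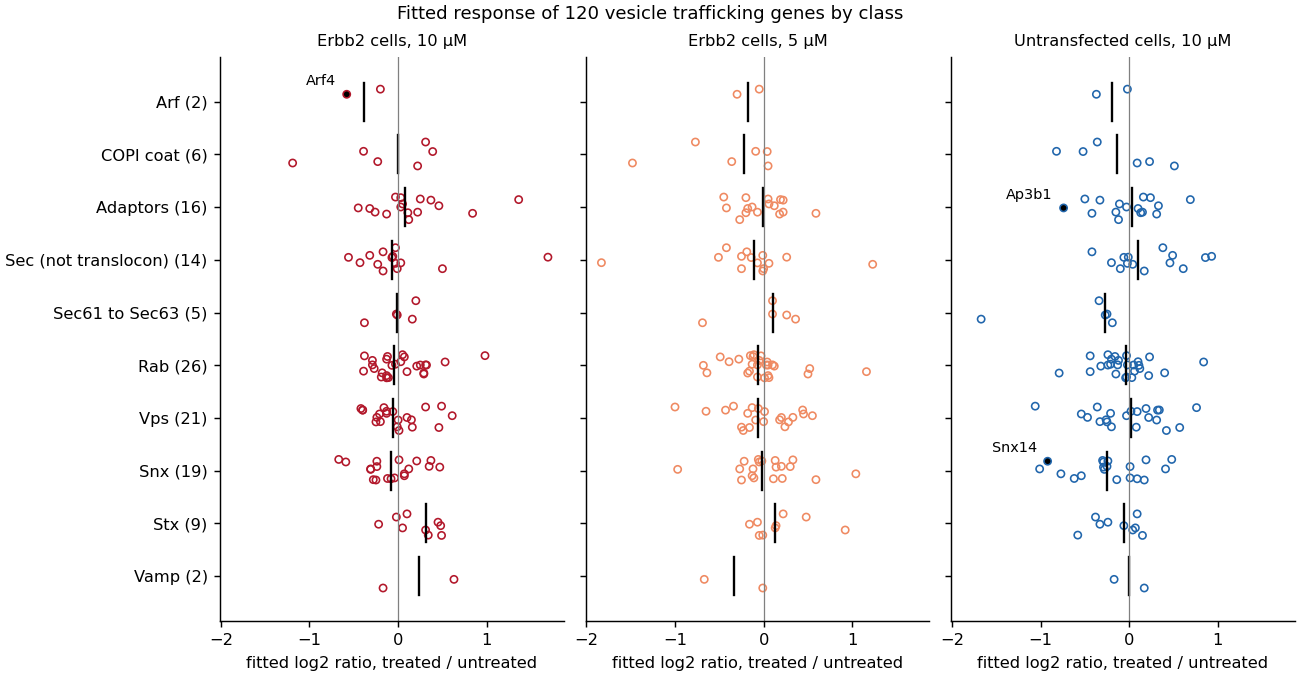
Fitted log2 ratio of treated over untreated cells (x axis) for each of the 120 tested trafficking genes, by gene class (y axis, number of genes in brackets) in the 3 groups. Open circles are genes that did not pass, filled circles genes with an adjusted p under 0.05, and vertical bars class medians. The filled circles are Arf4 in Erbb2 cells at 10 µM and Ap3b1 and Snx14 in untransfected cells, all 3 below 0.

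The tests bounded most of the genes. The 95% interval of the fitted value lay within a 2-fold change either way for 90 of the 120 genes in Erbb2 cells at 10 µM (75%, where 63.5% of all features did), for 78 at 5 µM (65%, where 47.6% did) and for 66 in untransfected cells (55%, where 42.7% did). The median standard error of the trafficking genes was 0.23 at 10 µM and 0.31 at 5 µM, against 0.32 in untransfected cells. A 2-fold change was therefore outside the interval for most of the family in each group, whereas smaller changes were often not detectable with 4 arrays.

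**Figure D2:**
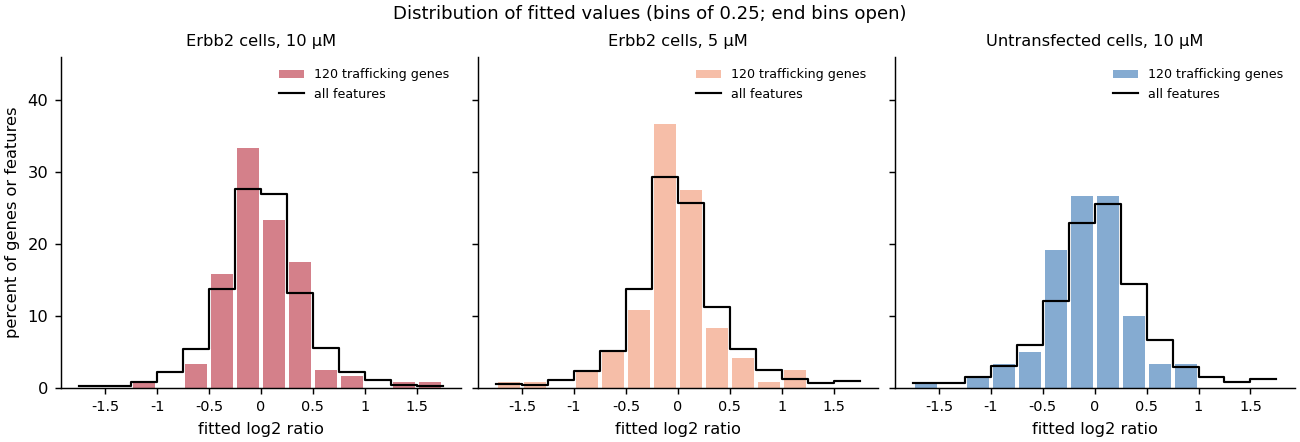
Percent of the 120 trafficking genes (bars) and of all 12420 features (line) by fitted log2 ratio, in bins 0.25 wide with open end bins, in the 3 groups. In untransfected cells 19.2% of the trafficking genes and 12.1% of all features lie between -0.5 and -0.25. Between 0.25 and 0.5 lie 10% and 14.4%. With those arrays turned the other way these bins would change places. At 5 µM 36.7% of the trafficking genes and 29.3% of all features lie between -0.25 and 0. These differences were not tested.

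As the labels of channel 1 give the signs, in untransfected cells 23 of the 120 genes were below 0 on every array with a value (19.2%, where 13.3% of all features were) and 7 were above 0 on every array (5.83%, where 12.2% were). With those arrays turned the other way the 23 would be above 0 and the 7 below. The 7 were Copz2, Sec16b, Sec22c, Sec23ip, Snx20, Vps36 and Vps53, and the 23 included Rab2a, Rab7, Rab9, Rab13, Snx5, Snx7, Vps13a, Vps29 and Vps41. At 5 µM 16 of the genes were below 0 on every array (13.3%, where 10.2% of all features were) and 5 above (4.17%, where 8.3% were). On the 8 arrays of Erbb2 cells at 10 µM, Ap3b1 and Stx3 were below 0 on every array with a value (1.67%, where 2.04% of all features were) and Ap2m1 was above 0 on every such array (0.833%, where 1.31% were). Per array, the median of the trafficking genes was -0.09, -0.14, -0.11 and -0.02 in untransfected cells, against 0.03, 0.02, 0 and 0.01 for all features on the same arrays. At 5 µM it was -0.06, -0.06, -0.04 and -0.07, against -0.02, -0.04, 0.01 and -0.03 for all features. At 10 µM it was -0.09, -0.03, 0.03, 0, -0.03, -0.03, -0.02 and -0.10, against -0.01, -0.03, 0.03, -0.01, -0.04, -0.03, 0 and 0 for all features. These shares were not tested, and the genes share the arrays and their scaling.

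Among the Arf GTPases, Arf4, a Golgi and endosomal GTPase of the class that recruits coats, was the 1 trafficking gene that passed in Erbb2 cells at 10 µM. Its ratio there had a lowest value of -0.96, a median of -0.63 and a highest value of 0.03 over 8 arrays. It was -0.41, 0.13, -0.73 and -0.20 at 5 µM, against -0.11, -0.27, -0.48 and -0.62 in untransfected cells. Arf4 was thus below 0 on 7 of 8 arrays at 10 µM, 3 of 4 at 5 µM and 4 of 4 of untransfected cells. The fitted change was -0.58 ± 0.13 at 10 µM, 0.668 of the untreated level (limma, adjusted p = 0.0336) and -0.30 ± 0.18 at 5 µM (adjusted p = 0.959), against -0.37 ± 0.18 in untransfected cells (adjusted p = 0.45). The call at 10 µM was close to the threshold: without array 1 of that group the adjusted p was 0.107, and leaving out 1 of arrays 3, 4, 6, 7 and 8 of that group, or untransfected array 1 or 2, also took it above 0.05 (adjusted p = 0.0503 to 0.0868). Its difference between Erbb2 and untransfected cells was -0.21 ± 0.22 (adjusted p = 0.834), with a 95% interval of -0.68 to 0.25. Arf1, the GTPase that starts COPI assembly, had -0.20 ± 0.10 in Erbb2 cells at 10 µM and -0.05 ± 0.14 at 5 µM, against -0.02 ± 0.14 in untransfected cells and did not pass.

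**Figure D3:**
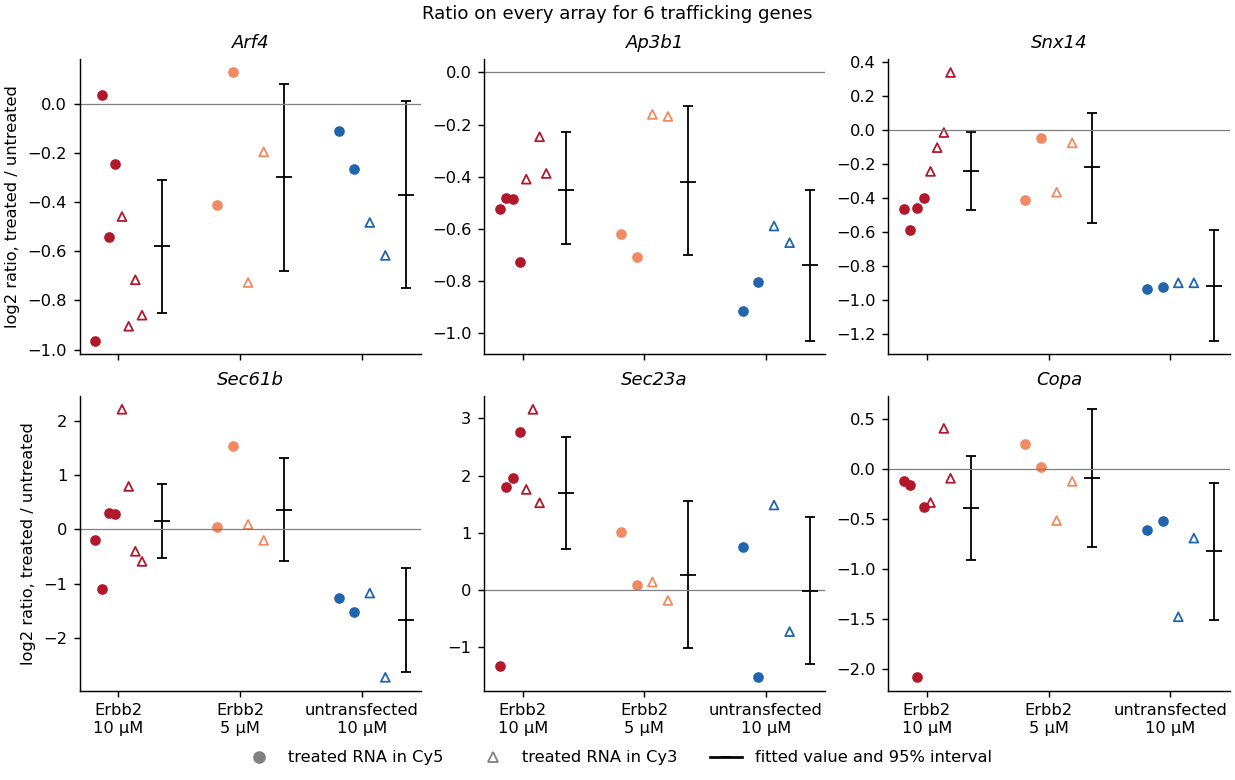
Log2 ratio of treated over untreated cells (y axis, its own scale in each panel) on every array with a value, for 6 trafficking genes in the 3 groups. Filled circles are arrays with the treated RNA in Cy5, open triangles arrays with it in Cy3, and black bars the fitted value with its 95% interval. Ap3b1 lies below 0 on all arrays shown, Snx14 and Sec61b lie lowest in untransfected cells, and Sec23a is above 0 on 6 of 7 arrays of Erbb2 cells at 10 µM.

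Of the 6 COPI coat genes 0 passed in any group in limma, with 1 at an unadjusted p under 0.05, in untransfected cells. Copa, the alpha subunit, had -0.61, -0.52, -1.48 and -0.69 in untransfected cells. It had a lowest value of -2.08, a median of -0.15 and a highest value of 0.41 over 7 arrays of Erbb2 cells at 10 µM. All 4 untransfected arrays were below the median of the Erbb2 arrays, and how many features show this was not counted. The fitted values of Copa were -0.39 ± 0.24 in Erbb2 cells at 10 µM (adjusted p = 0.599) and -0.82 ± 0.32 in untransfected cells (adjusted p = 0.29), which passed without array 3 of Erbb2 cells at 10 µM (adjusted p = 0.0443). The lowest fitted value of the 120 genes at 10 µM was that of Copg2, a gamma subunit, at -1.19 ± 0.58 (adjusted p = 0.485), and it spread from -5.02 to 1.89 over the 8 arrays. The other gamma subunit, Copg1, had -0.23 ± 0.12 at 10 µM and -0.36 ± 0.17 at 5 µM, with all 4 arrays at 5 µM between -0.41 and -0.32, and 0.23 ± 0.17 in untransfected cells. Copb2, the beta-prime subunit, had 0.31 ± 0.33 at 10 µM and -0.77 ± 0.46 at 5 µM, against -0.36 ± 0.46 in untransfected cells. Its 2 probes had fitted values of -0.07 and 0.66 at 10 µM, and -1.48 and 0.22 in untransfected cells. Copz1, a zeta subunit, had 0.39 ± 0.25 at 10 µM and 0.04 ± 0.35 at 5 µM, against -0.52 ± 0.35 in untransfected cells.

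Of the 16 adaptor subunits tested, which link clathrin and related coats to cargo, 3 had an unadjusted p under 0.05 in Erbb2 cells at 10 µM. This was 18.8%, where 10.8% of all features had such a p. There was 1 at 5 µM and 1 in untransfected cells. In untransfected cells Ap3b1 passed. It encodes the beta subunit of AP-3, which sends cargo to lysosomes and related organelles. Its ratio was -0.92, -0.81, -0.59 and -0.65 in untransfected cells. In Erbb2 cells at 10 µM 7 arrays gave a lowest value of -0.73, a median of -0.48 and a highest value of -0.25, and at 5 µM the values were -0.62, -0.71, -0.16 and -0.17. Every value of Ap3b1 was thus below 0. The fitted changes were -0.45 ± 0.10 in Erbb2 cells at 10 µM (adjusted p = 0.0527) and -0.42 ± 0.13 at 5 µM (adjusted p = 0.464), against -0.74 ± 0.13 in untransfected cells, 0.598 of the untreated level (limma, adjusted p = 0.00665). The difference between Erbb2 and untransfected cells was 0.30 ± 0.17 (adjusted p = 0.616). Only 1 of the 4 probes of Ap3b1 had enough values to be kept, and the other 3 scattered to both sides of 0. With probes valued on at least 2 arrays per group admitted, the average over its probes in untransfected cells was -0.49 and no longer passed (adjusted p = 0.72).

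Of the other AP-3 subunits, Ap3s2, a sigma subunit, had -0.32 ± 0.12 in Erbb2 cells at 10 µM (adjusted p = 0.35), with 7 of 8 arrays below 0. It had -0.18 ± 0.17 at 5 µM with all 4 arrays below 0, against 0.10 ± 0.17 in untransfected cells. These are averages over 3 probes, whose fitted values ranged from -0.99 to 0.07 in Erbb2 cells at 10 µM. Ap3m1, the mu subunit, had 0.84 ± 0.31 in Erbb2 cells at 10 µM and 0.59 ± 0.43 at 5 µM, against -0.42 ± 0.43 in untransfected cells. Ap3d1, the delta subunit, had 0.11 ± 0.16 at 10 µM and -0.20 ± 0.22 at 5 µM, against 0.13 ± 0.22 in untransfected cells. The AP-2 complex takes cargo from the cell surface into clathrin-coated pits. Its mu subunit Ap2m1 had a fitted value of 1.36 ± 0.74 at 10 µM, next to the highest of the 120 genes, but 1 array at 5.66 stood far above the others, which lay between 0.24 and 1.48. The alpha subunit Ap2a1 had 0.03 ± 0.14 at 10 µM and -0.20 ± 0.18 at 5 µM, against 0.24 ± 0.18 in untransfected cells, and the beta subunit Ap2b1 0.25 ± 0.22 at 10 µM and 0.05 ± 0.31 at 5 µM, against -0.50 ± 0.31 in untransfected cells. None of these passed, nor did Ap1b1, the beta subunit of the Golgi adaptor AP-1, whose 3 fitted values lay between -0.11 and 0.06.

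Genes of the translocon, through which new proteins enter the endoplasmic reticulum, were all 5 below 0 in untransfected cells, with a median of -0.27. Of all features 5824 of 12420 were below 0 there, with a median of 0.03. The translocon medians were -0.01 in Erbb2 cells at 10 µM and 0.10 at 5 µM. With the untransfected arrays turned the other way all 5 translocon genes were above 0, with a median of 0.27. In limma 0 passed in any group, with 1 at an unadjusted p under 0.05, in untransfected cells. Sec61b, the beta subunit of the channel, had -1.27, -1.52, -1.18 and -2.73 in untransfected cells. In Erbb2 cells it had a lowest value of -1.10, a median of 0.04 and a highest value of 2.21 at 10 µM, and 0.04, 1.53, 0.09 and -0.20 at 5 µM. Every untransfected array was below every Erbb2 array, and the share of all features that separate so was not counted. The fitted values were 0.16 ± 0.32 in Erbb2 cells at 10 µM and 0.36 ± 0.45 at 5 µM, against -1.67 ± 0.45 in untransfected cells (limma, adjusted p = 0.067). The difference of Erbb2 from untransfected cells at 10 µM was 1.83 ± 0.55 (adjusted p = 0.202), with a 95% interval that began at 0.66. With the untransfected arrays turned, Sec61b was 1.67 there, the highest of the 120 genes, its arrays (1.18 to 2.73) overlapped those of Erbb2 cells (-1.10 to 2.21), and the difference was -1.51 (adjusted p = 0.236). Sec61b in untransfected cells passed without array 5 of Erbb2 cells at 10 µM (adjusted p = 0.0156). The other members had smaller values in untransfected cells: Sec61a1, the channel itself, -0.25 ± 0.26, Sec61g, its gamma subunit, -0.27 ± 0.18, Sec62 -0.19 ± 0.35 and Sec63, which recruits the luminal chaperone, -0.34 ± 0.17. Sec63 was between -0.43 and -0.21 on all 4 of those arrays and Sec61g between -0.42 and -0.14.

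Sec23a, the subunit of the inner COPII coat that activates the GTPase Sar1, had the highest fitted value of the 120 genes in Erbb2 cells at 10 µM. Its ratio there was 1.80, 1.96, 2.76, 1.76, 3.16 and 1.52 on 6 arrays and -1.32 on array 1. It was 1.01, 0.08, 0.14 and -0.18 at 5 µM, against 0.75, -1.53, 1.48 and -0.73 in untransfected cells. The 6 high arrays held both dye orders, and 1 array opposed them. The fitted value was 1.69 ± 0.45 at 10 µM (limma, adjusted p = 0.113) and 0.26 ± 0.60 at 5 µM, against -0.01 ± 0.60 in untransfected cells. Without array 1 the value at 10 µM was 2.16 and passed (adjusted p = 0.0119). Its paralogue Sec23b had -0.06 ± 0.28 at 10 µM and -0.25 ± 0.40 at 5 µM, against 0.93 ± 0.40 in untransfected cells, where 1 array was at 3.35 beside -0.09, 0.52 and -0.04.

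Most of the 14 tested genes with symbols beginning in Sec outside the translocon act in transport between the endoplasmic reticulum and the Golgi. The 14 had a median of -0.07 with 11 below 0 in Erbb2 cells at 10 µM, and -0.10 with 10 below 0 at 5 µM. In untransfected cells the median was 0.10 with 6 below 0. Of the 12420 features 6281, 6501 and 5824 were below 0 in these groups, with medians of 0, -0.02 and 0.03. Sec13, an outer COPII subunit that also sits in the nuclear pore, had the lowest fitted value at 5 µM, -1.83 ± 0.90, from 1 array at -7.63 beside 0.80, -0.69 and 0.22. Sec14l1, a SEC14-like lipid-binding protein, had the highest, 1.23 ± 0.79, from 1 array at 4.97 beside -0.98, 1.15 and -0.24. Sec22c, a relative of the SNARE Sec22b, had 0.77, 1.25, 1.36 and 0.07 in untransfected cells (0.86 ± 0.36, adjusted p = 0.341), and Sec22b had 0.38 ± 0.27 there. Of the 14 genes, Sec23a and Sec23b included, 0 passed in any group in limma, with 1 at an unadjusted p under 0.05 in Erbb2 cells at 10 µM and 0 at 5 µM, against 2 in untransfected cells.

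Of the 26 Rab GTPases tested 0 passed in any group in limma, and 1 had an unadjusted p under 0.05 in Erbb2 cells at 10 µM and 2 at 5 µM, against 1 in untransfected cells. Class medians were -0.05 in Erbb2 cells at 10 µM and -0.06 at 5 µM, against -0.04 in untransfected cells. Rab4a, which acts in rapid recycling from early endosomes, had the highest value of the class at 10 µM, 0.98 ± 0.34 (adjusted p = 0.299), with arrays from -0.66 to 2.63. Rab19 was highest in untransfected cells (0.84 ± 0.68) and Rab23, known from hedgehog signalling, at 5 µM (1.16 ± 0.64), where 1 array was at 3.48. Rab5c, an early endosome Rab, had 0.03 ± 0.18 at 10 µM and -0.39 ± 0.26 at 5 µM, against 0.10 ± 0.26 in untransfected cells.

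Rab7, the late endosome and lysosome Rab, was read by 4 probes, and these disagreed in untransfected cells. Probe A gave -0.51, -0.78, -0.70 and -0.55 there, and probe D -0.73, -0.63, -0.96 and -0.91. Probe C gave 1.18, 0.78, 0.52 and 0.74, and probe B spread from -0.81 to 0.44. Probes A and D were low on all 4 arrays and probe C high on all 4. Tested one by one, probes A (-0.64 ± 0.16, adjusted p = 0.0494) and D (-0.81 ± 0.16, adjusted p = 0.00907) passed, while C (0.80 ± 0.24, adjusted p = 0.108) and B (-0.18 ± 0.30) did not. Their average, the value used for the gene, was -0.21 ± 0.14 (adjusted p = 0.721). In Erbb2 cells the 4 probes had fitted values between -0.11 and 0.05 at 10 µM and between -0.20 and -0.04 at 5 µM.

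**Figure D4:**
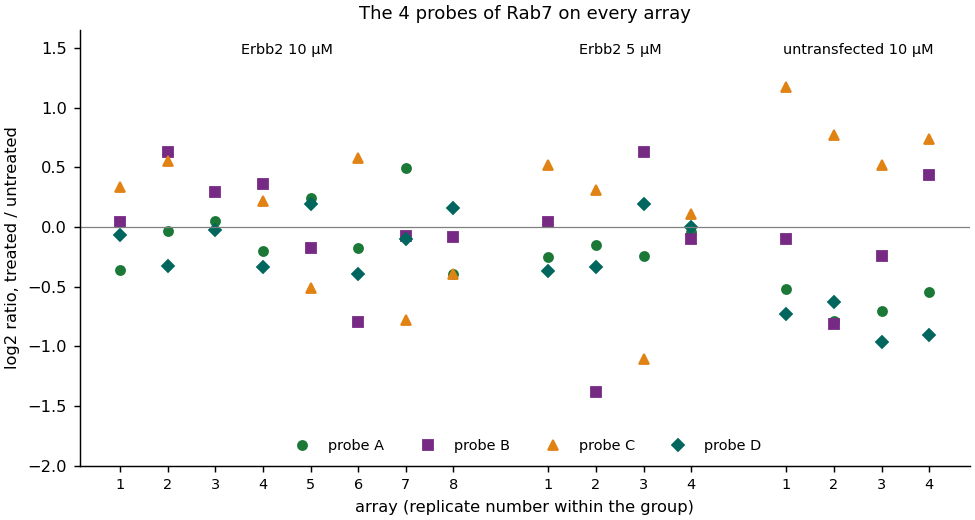
Log2 ratio of treated over untreated cells (y axis) of the 4 probes of Rab7 on every array (x axis) of the 3 groups. Probes A and D lie between -0.96 and -0.51 on the untransfected arrays, and probe C lies between 0.52 and 1.18 on the same arrays.

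Of the 120 tested genes 34 had more than 1 kept probe. Fitted values of these probes had opposite signs for 21 genes in Erbb2 cells at 10 µM (61.8%, where 52.3% of all 1879 genes with several probes had them), for 11 at 5 µM (32.4%, where 53.3% had) and for 17 in untransfected cells (50%, where 50.2% had). The median gap between the highest and lowest probe was 0.52 log2 units at 10 µM (0.39 for all such genes), 0.43 at 5 µM (0.41) and 0.47 in untransfected cells (0.43). Near 0 a small gap is enough for opposite signs, so these counts alone show no disagreement. Snx27, a sorting nexin of the recycling route, also had a probe that passed on its own in untransfected cells, at -1.60 ± 0.39 (adjusted p = 0.0402). Its other probes were at -0.48 ± 0.17 and -0.17 ± 0.36 there, and the average over the 3 had an adjusted p of 0.21.

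Of the sorting nexins, proteins that bind phosphoinositides through a phox domain, Snx14 passed in untransfected cells. It encodes a nexin of the endoplasmic reticulum. Its ratio was -0.94, -0.92, -0.90 and -0.90 in untransfected cells, a narrower spread than that of Arf4 or Ap3b1 in any group. In Erbb2 cells at 10 µM it had a lowest value of -0.59, a median of -0.32 and a highest value of 0.34, and at 5 µM -0.41, -0.05, -0.37 and -0.08. Every untransfected array was below every Erbb2 array, and with the untransfected arrays turned the other way every one was above them. How many of all features separate in this way was not counted. The 10 µM arrays with the treated RNA in Cy5 averaged -0.48 and those with it in Cy3 averaged 0, while the untransfected arrays averaged -0.93 with the treated RNA in Cy5 and -0.90 with it in Cy3. The fitted values were -0.24 ± 0.11 at 10 µM (adjusted p = 0.44) and -0.22 ± 0.15 at 5 µM, against -0.92 ± 0.15 in untransfected cells, 0.53 of the untreated level (limma, adjusted p = 0.00346). The difference of Erbb2 from untransfected cells at 10 µM was 0.67 ± 0.19, the smallest p of the 120 genes in that comparison, but did not pass (adjusted p = 0.152). A second Snx14 probe had too few values to be kept and gave 1 untransfected value, 1.25.

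The sorting nexins had a median of -0.08 in Erbb2 cells at 10 µM and -0.02 at 5 µM, against -0.25 in untransfected cells, where 12 of 19 were below 0. Snx5, part of the nexin dimer that forms retrieval tubules with Snx1 or Snx2, had 0.47 ± 0.15 at 10 µM and 0.14 ± 0.21 at 5 µM, against -0.29 ± 0.21 in untransfected cells. Its partner Snx2 had 0.37 ± 0.20 at 10 µM and 0.13 ± 0.28 at 5 µM, against -0.30 ± 0.28 in untransfected cells, and the 3 fitted values of Snx1 lay between -0.11 and 0.01. The difference of Erbb2 from untransfected cells was 0.76 ± 0.26 for Snx5 (adjusted p = 0.277). The lowest nexins at 10 µM were Snx19 (-0.67 ± 0.36) and Snx18 (-0.59 ± 0.26), and 1 array of Snx18 was at -2.84. Snx3, which loads cargo into retromer, was lowest at 5 µM (-0.97 ± 0.49), Snx7 in untransfected cells (-1.01 ± 0.79) and Snx8 highest at 5 µM (1.04 ± 0.72), with values from -0.81 to 3.13.

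Of the 21 Vps genes, most of which belong to the retromer, HOPS, ESCRT and related complexes of endosomes and 1 of which is the nuclear Vps72, 0 passed in any group in limma, with 1 at an unadjusted p under 0.05 in Erbb2 cells at 10 µM and 0 at 5 µM, against 1 in untransfected cells. Retromer, which returns receptors from endosomes, was represented by Vps26a (-0.42 ± 0.23 in Erbb2 cells at 10 µM and -0.06 ± 0.33 at 5 µM, against 0.19 ± 0.33 in untransfected cells) and Vps29 (-0.13 ± 0.10 at 10 µM and -0.18 ± 0.14 at 5 µM, against -0.21 ± 0.14 in untransfected cells). Vps29 was between -0.27 and -0.15 on the 4 untransfected arrays. The widest values belonged to genes with a few distant arrays: Vps13a, a lipid-transfer protein, had -1.06 ± 1.02 in untransfected cells and spread from -3.91 to 5.70 in Erbb2 cells at 10 µM. Vps41, a HOPS subunit, had -3.02, 1.06 and -0.31 on 3 arrays at 5 µM. Vps37c, an ESCRT-I subunit, had 0.76 ± 0.33 in untransfected cells, where it had -0.75, 2.25, 0.30 and 1.24. Leaving out 1 array moved that value between 0.23 and 1.32, and without untransfected array 1 it passed (adjusted p = 0.0251).

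**Figure D5:**
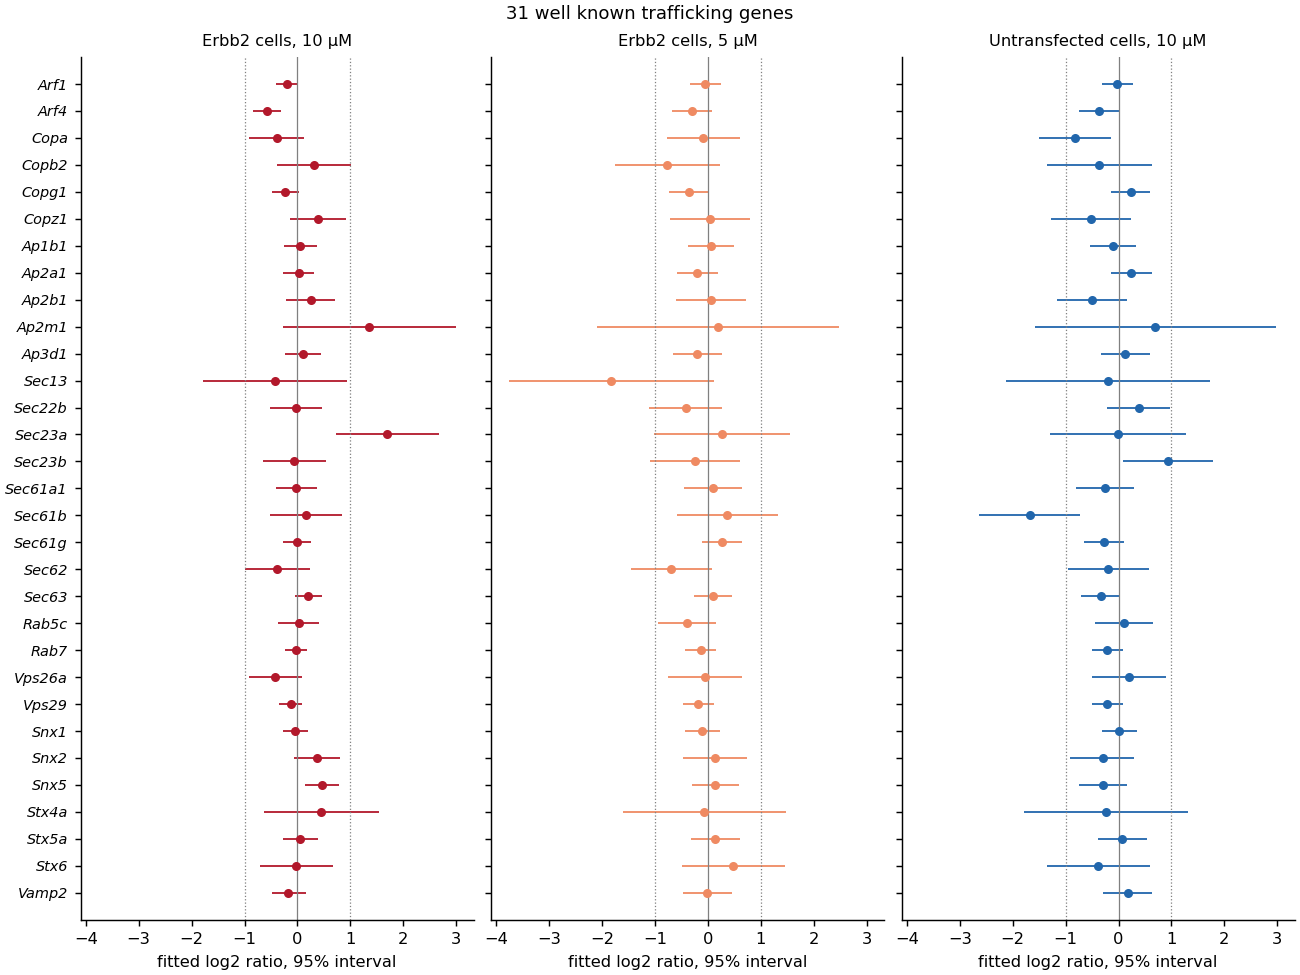
Fitted log2 ratio with its 95% interval (x axis) for the 31 tested genes of a list of well known trafficking genes (y axis), in the 3 groups, with dotted lines at a 2-fold change either way. The interval lies within 2-fold for 25 genes in Erbb2 cells at 10 µM and 21 at 5 µM, against 20 in untransfected cells, and it covers 0 for 28 at 10 µM and 31 at 5 µM, against 28 in untransfected cells.

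Among the SNAREs, the 9 syntaxins had a median of 0.31 with 7 above 0 in Erbb2 cells at 10 µM. The median was 0.13 with 5 above 0 at 5 µM, and -0.06 with 4 above 0 in untransfected cells. Of all features 49.4%, 47.7% and 53.1% were above 0 in these groups, with medians of 0, -0.02 and 0.03. In limma 0 of the 9 syntaxins passed. There were 2 at an unadjusted p under 0.05 in Erbb2 cells at 10 µM and 1 at 5 µM, against 1 in untransfected cells. The difference of Erbb2 from untransfected cells was above 0 for 8 of 9 (47.9% of all features), with a median of 0.34. With the untransfected arrays turned the other way it was above 0 for 6 of 9 (6486 of 12420 features), with a median of 0.19. Stx12, an endosomal syntaxin, had 0.92 ± 0.36 at 5 µM (adjusted p = 0.627). Stx4a, the plasma membrane syntaxin, had 0.45 ± 0.51 at 10 µM with 1 array at 5.27, Stx5a, of the early secretory pathway, 0.05 ± 0.15, and Stx6, of the trans-Golgi network, -0.02 ± 0.32. Vamp2, the vesicle SNARE of regulated secretion, had -0.17 ± 0.15 at 10 µM and -0.01 ± 0.22 at 5 µM, against 0.17 ± 0.22 in untransfected cells.

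The higher dose was set against the lower one in Erbb2 cells, and the Erbb2 response against that of untransfected cells at the same dose. For 10 µM minus 5 µM 0 of the 120 genes passed, with 0 at an unadjusted p under 0.05 (0% of all features passed and 4.33% had such a p), and the median difference was 0.06, against 0.01 for all features. For Erbb2 minus untransfected cells at 10 µM 0 of the 120 passed, with 12 at an unadjusted p under 0.05 (10%), where 0.813% of all features passed (0.628% higher, 0.185% lower) and 9.72% had such a p. The median difference was 0.02, against -0.03 for all features. The comparisons share the arrays of Erbb2 cells at 10 µM. The interval of the difference lay within 2-fold for 52 of the genes between doses (43.3%, where 32.7% of all features did). Between cell lines it did so for 46 (38.3%, where 28% did). For most of the family, as for most features, a 2-fold difference between groups was thus not bounded by these arrays.

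The 37 untested trafficking genes had values on 6 to 16 arrays without meeting the minimum in each group. They comprised 16 Rab genes, 5 Sec genes, 3 each of the Vps, Snx and Vamp families, 2 each of the Arf, adaptor and syntaxin families and 1 COPI gene. Their medians were scattered: Rab14, a Golgi to endosome Rab, had a median of -0.73 over 8 arrays of Erbb2 cells at 10 µM, and Sec24c, a COPII cargo adaptor, had 0.25 over 8 arrays there and no value in untransfected cells. Rab11a, the recycling endosome Rab, had a median of 0.11 over 5 arrays at 10 µM, and the SNAREs Vamp3 and Vamp8 had medians of 0.27 over 6 and 5 arrays there. Arf3 had -0.29 over 5 arrays there, Cope, the epsilon subunit of COPI, -0.20 over 5, and Ap2s1, the sigma subunit of AP-2, -0.93 over 5.

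A wider list of genes that act with these families, among them SNARE regulators, tethers, clathrin, ESCRT and Rab or Arf regulators, held 140 genes, of which 75 were tested. In Erbb2 cells 0 of the 75 passed at either dose in limma. At an unadjusted p under 0.05 there were 11 at 10 µM (14.7%, where 10.8% of all features had such a p) and 2 at 5 µM (2.67%, where 6.33% had). In untransfected cells 1 passed (1.33%, where 2.73% of all features passed), with a higher ratio (0.596% of all features). It was Stxbp2, a Munc18 protein that binds syntaxins, with 0.92, 1.28, 0.14 and 0.98 in untransfected cells. It lay between -0.31 and 0.45 in Erbb2 cells at 10 µM and had 0.27, 0.18, -0.05 and 0.40 at 5 µM. The fitted values were 0.13 ± 0.13 in Erbb2 cells at 10 µM and 0.20 ± 0.19 at 5 µM, against 0.83 ± 0.19 in untransfected cells (adjusted p = 0.0251). The call was lost without untransfected array 1 (adjusted p = 0.106), 2 (0.166) or 4 (0.137).

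Short motifs, 3 in all, were counted in the promoter windows on both strands as a description: CCACG, a piece of the element read in the unfolded protein response, CACGTG, the E-box read by the lysosomal regulator TFEB and other factors, and TGACGTG, read by ATF6 and related factors. CCACG was found in 40.0% of the 130 trafficking promoters, against 40.3% of those of genes on the arrays and 28.2% of all promoters. CACGTG was found in 10.8% of the trafficking promoters, against 8.37% of those on the arrays and 6.05% of all. TGACGTG was found in 1.54%, against 2.27% of those on the arrays and 1.61% of all. A CCACG match can overlap a match of either other motif, so the counts are not independent. Of the windows shown, those of Arf4 and Ap3b1 held 1 CCACG each and those of Snx14 and Sec61b held 0 of the 3 motifs, with no CACGTG or TGACGTG in any of the 4.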

How the data were processed

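RNA of treated and untreated cells was hybridised together on 16 arrays of 20355 probes, grouped by each sample's title and source name. The deposited log2 ratios were made by the authors, centred near 0 on each array. The base of the logarithm was read from values that equal log2 of ratios of small whole numbers (up to 4, tolerance 0.0011) once 1 constant per array is added back. That constant, read as taken away when the authors centred the arrays, was 0.02 to 1.17 log2 units and above 0 on all 16 arrays, whichever dye held the treated RNA. It was read from 1755 repeated top values of 325680 cells, equal to a ratio of 100000, which were set to missing beside 38737 empty cells. Image analysis and background correction are not stated in the labels. No signal intensities were used, and precision is limited by the number of arrays.

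The numerator of the deposited ratios is not stated and was assumed to be Cy5, the usual convention. That arrays needed turning at all was read from the mean Pearson's r between arrays of a group, which for same against opposite dye labels was 0.0257 against 0.00388 in Erbb2 cells at 10 µM, 0.0516 against -0.00267 with 5 µM and 0.109 against -0.0529 in untransfected cells. These correlations cannot tell Cy5 over Cy3 from its inverse, and in Erbb2 cells at 10 µM they barely differ. Arrays with the treated RNA in Cy3, by the label of channel 1, had their sign turned. The label protocol speaks of organs and control animals and was not used. No 2 arrays shared more than 0.0897% identical values.

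Probes needed values on 6 of 8 arrays and 3 of 4 in each other group, with both dye orders present. Probes of 1 gene symbol were averaged. Symbols came from the platform annotation, of which 13994 of 14030 probes with 1 symbol matched the mouse reference by Entrez ID, with 0 symbols changed. All arrays entered 1 model in limma 3.58.1 (R 4.3.3) with a coefficient per group and a dye term, followed by eBayes, two-sided. The 2 differences between groups were fitted as coefficients of the same model. The dye term passed for 0 of the 120 trafficking genes, with 8 at an unadjusted p under 0.05 (6.67%). It passed for 0 of all 12420 features, of which 8.05% had such a p. The procedure was run on simulated data with independent normal noise, as a check of signs and mean bias alone. The simulation held no dye effect and no single distant arrays, and false calls and power were not judged.

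Members, gene lists, classes and named genes were chosen with earlier results of these data known. Genes are named that passed in any of 5 comparisons, had 1 of the 4 highest or 4 lowest fitted values in a group, or stand on a list of well known members. Genes listed for one sign on every array, and Snx27, Ap3s2, Vps72 and Sec1, were chosen after their values were seen. Of that list Rab1a, Rab5a, Rab11b, Vps35, Copb1, Ap1g1, Arf5, Arf6, Stx7, Vamp4 and Vamp7 were not analysed here. Alternatives covered the turning of arrays, placeholders, the minimum of arrays, probe averaging, the dye term, array scale and weights, a group fitted alone, a replicate block, and each array left out. Arrays were not paired by replicate number in the main model. Deviations of same-numbered arrays of different groups correlated at -0.019 to 0.0363. Differently numbered arrays were not compared, so this check cannot tell whether the numbers mark shared cultures.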

Additional observations from a re-analysis of the deposited data

Results flagged for a closer look

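Array values of the 49 named trafficking genes and of Stxbp2 were searched for 1 array far from the others. Dixon's test at its 95% critical value was applied to 140 groups of 4 to 8 values. In 10 groups an array stood out (7.14%), 7 of them in Erbb2 cells at 10 µM, 1 in these cells at 5 µM and 2 in untransfected cells. Chance gives such an array in about 1 in 20 groups, but some of these genes were named for extreme fitted values, which 1 distant array can produce, so that rate does not apply to them. Arrays 3 and 6 of Erbb2 cells at 10 µM, which have some of the widest ratios over all probes, gave 5 of the 10: array 3 was highest for Ap2m1 (5.66) and Sec23b (1.12) and lowest for Copa (-2.08), and array 6 was highest for Copz1 (2.31) and lowest for Snx18 (-2.84). In the same group array 1 was lowest for Sec23a (-1.32) and array 7 highest for Stx4a (5.27). At 5 µM array 2 was highest for Sec61b (1.53). In untransfected cells array 1 was lowest for Stx6 (-1.51) and array 3 lowest for Vps13a (-2.54). Without its distant array the fitted value in Erbb2 cells at 10 µM was 0.61 for Ap2m1 and -0.23 for Stx4a, against 1.36 and 0.45 with all arrays. Of these 10, the value without the distant array passed only for Sec23a in Erbb2 cells at 10 µM (2.16, limma adjusted p = 0.0119).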

How the results depend on the processing

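The counts of trafficking genes that passed (1 in Erbb2 cells at 10 µM, 0 at 5 µM, 2 in untransfected cells, 0 for either difference) ranged from 0 to 4 over the alternatives, and which genes passed moved. In Erbb2 cells at 10 µM the count was 0 with no array turned, with 2 arrays per group as the minimum, with no dye term, with arrays scaled to one spread, with array weights, with the group fitted on its own arrays and, chosen after seeing the data, without arrays 3, 5 and 6. It was 2 with placeholders kept or with ratios of small whole numbers set to missing (Ap3b1 beside Arf4), the second also chosen after seeing the data, and 2 with a value required on all 16 arrays (Rab22a beside Arf4). Leaving out 1 array gave 0 to 1, where the gene was Sec23a without array 1 of that group, Ap3b1 without its array 6 and Arf4 otherwise. In untransfected cells the count was 0 with no array turned and with the group fitted alone, 1 with the lower minimum (Snx14), 4 with each probe on its own (Ap3b1, Rab7, Snx14 and Snx27) and 4 without arrays 3, 5 and 6 of the other line (Ap3b1, Copa, Sec61b and Snx14), and 2 to 3 with 1 array left out. Snx14 (adjusted p = 0.00276 to 0.0265) and Ap3b1 (0.00437 to 0.0415) passed there without any 1 array. For Erbb2 minus untransfected cells the count was 1 with all 16 arrays required (Snx14). It was 3, all lower, with the untransfected arrays turned the other way (Ap3b1, Arf4 and Snx14). The counts under the alternatives were not set against the share of all features that passed in the same setting. Whether the trafficking genes gained or lost relative to all features there was therefore not judged.

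Directions depend on the dye labels. With no array turned, Arf4 in Erbb2 cells at 10 µM was 0.15. With the untransfected arrays turned the other way, untransfected values were 0.74 for Ap3b1, 0.92 for Snx14 and -0.83 for Stxbp2, and differences from them -1.19 for Ap3b1, -1.16 for Snx14 and 0.96 for Stxbp2. Over all features the counts that moved by more than 1.5 times were those with no array turned (2 at 10 µM, 0 at 5 µM, 4 in untransfected cells, 0 for Erbb2 minus untransfected), those with groups fitted alone (22 at 10 µM and 0 in either other group), those with all 16 arrays required (247 at 10 µM, 73 at 5 µM and 189 for Erbb2 minus untransfected), and, at 5 µM, 147 with array weights, 45 with scaled arrays, 16 with each probe alone, 5 with the lower minimum and 5 to 24 with 1 array left out; without arrays 3, 5 and 6 the 10 µM count was 57. With 1 array left out it was 103 to 145, with 213 to 372 in untransfected cells and 60 to 105 for Erbb2 minus untransfected. Erbb2 minus untransfected gave 351 with those arrays turned the other way. The replicate block gave 0 trafficking genes for either difference, and 0 features for Erbb2 minus untransfected cells. The number of features tested differs with the minimum of arrays and with each probe alone. The counts over all features are not shares of that number, so a rise or fall in share was not judged. The cause of the moves in these counts was not tested. No signal intensity was used, so dim probes could not be set apart by level.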
